A study of Mus musculus with 4 samples.

Results

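The respiratory chain genes of the mouse liver were taken as the entries of the deposited expression table whose symbols name a subunit of complexes I to V or an assembly factor of the Ndufaf, Uqcc or Atp5s type. The rule selected 107 of the 22103 entries, 13 encoded by mitochondrial DNA (prefix mt-) and 94 by nuclear DNA. The gene set was chosen from measured values, because the share of mt- transcripts was higher in both knockout columns, so the mt- differences between genotypes are a description and are given without a test that supports them. RNA came from whole livers of 2 wild-type mice (WT) and 2 mice with hepatocyte deletion of Smarca4, the gene of the chromatin remodelling ATPase Brg1 (Brg1LKO in the text, KO in the plots). The deletion used a floxed Smarca4 allele with Cre under the Alb promoter, which is active in hepatocytes. Smarca4 in other liver cells was not measured separately here. All 4 mice were fed alcohol for 15 days in the NIAAA model, in which an ethanol liquid diet ends with an ethanol gavage. The study's methods give male mice of 8 weeks with WT littermates as controls. No library from mice without alcohol was analysed here, so each difference is between genotypes under ethanol.

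The respiratory chain passes electrons from NADH through complex I, and from succinate through complex II, to ubiquinone, then through complex III and cytochrome c to complex IV, where oxygen is reduced. Complexes I, III and IV pump protons across the inner mitochondrial membrane, and complex V, the ATP synthase, uses the gradient to make ATP. Complex II is built from nuclear genes alone, while the other complexes join proteins of both genomes. Hepatocytes oxidise ethanol to acetate with a rise in NADH, which is reoxidised in mitochondria.

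Levels were FPKM, fragments per kilobase of transcript scaled to the total of mapped fragments, as the authors calculated them. Library totals estimated from the steps of low values were 72570277 to 80935483 reads. In WT, Smarca4 had 1.79 and 1.95 FPKM, and in Brg1LKO it had 0.608 and 0.579 FPKM. Hepatocyte markers were abundant in all libraries, with summed levels of 26490 and 21130 FPKM in WT and 22830 and 25740 FPKM in Brg1LKO for the 11 markers found, led by albumin (Alb). Of 10 macrophage markers, all were higher in the Brg1LKO mean. In 9 of them both Brg1LKO livers were above both WT livers, beside 10.7% of all genes tested. Of the 10, limma gave 6 an unadjusted p under 0.05, beside 247 of all 12346 genes tested. It called 3 at more than 2-fold (Vsig4, Cd68 and Cd5l), beside 0.98% of all genes tested. The adjusted p was under 0.05 for 0 of the 10. The summed level of these markers was 48.4 and 49.4 FPKM in WT against 62.9 and 138 FPKM in Brg1LKO, so replicate 2 of Brg1LKO stood apart. Summed erythroid markers were 21.9 and 40.4 FPKM in WT against 181 and 26.8 FPKM in Brg1LKO, so replicate 1 of Brg1LKO stood apart. Of 8 muscle markers, the defining genes Ckm, Myh4, Myh6 and Myl2 were at 0 in every library, Acta1 was at 0.996 to 1.42 FPKM, and the summed level of the list was 1.51 and 1.21 FPKM in WT against 1.40 and 1.49 FPKM in Brg1LKO. Summed sinusoidal endothelial markers (10) were 42.0 and 44.5 FPKM in WT against 34.1 and 43.2 FPKM in Brg1LKO, stellate markers (10) 95.5 and 119 against 90.2 and 113 FPKM, neutrophil markers (9) 11.5 and 4.37 against 16.5 and 8.19 FPKM and cholangiocyte markers (8) 5.18 and 5.92 against 4.22 and 4.53 FPKM. None of 9 lymphocyte markers (0) passed the filter on low values. The part of other cell types in the values below was not tested, and in bulk liver fewer cells of a type and less RNA per cell cannot be told apart.

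The mt- genes lie in a compact order on the mitochondrial chromosome, and several share bases, which bears on how a read is given to a gene. The runs below are from the GENCODE transcripts of GRCm38 (plus strand, 5′ to 3′), with the bases annotated in both genes in capitals.
mt-Atp8 and mt-Atp6, chrM:7915-7981: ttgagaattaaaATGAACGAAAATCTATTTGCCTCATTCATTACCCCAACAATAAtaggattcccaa
mt-Nd4l and mt-Nd4, chrM:10155-10185: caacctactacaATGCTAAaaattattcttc
The first pair shares 43 bases, from the start codon of mt-Atp6 to the stop codon of mt-Atp8, and the second pair shares 7. The mt-Atp6 and mt-Co3 annotations share 1 base. The listed sequences of mt-Co3, mt-Nd4 and mt-Cytb end in a single T and have no complete stop codon in the annotation. mt-Nd6 is the only member on the minus strand of this chromosome (chrM:13552-14070), and its end overlaps mt-Nd5 (chrM:11742-13565). Whether strand was used when reads were assigned is not given in the sources used here.

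Transcripts of the 13 mt- genes made up 4.18% of the summed FPKM in each WT liver, and 6.48% and 6.01% in Brg1LKO replicates 1 and 2. As a share of all estimated reads of the library, the values were 1.66% and 1.78% in WT and 2.49% and 2.29% in Brg1LKO. Summed mt- FPKM was 18500 and 19920 in WT and 27920 and 25450 in Brg1LKO, a ratio of group means of 1.39. The groups did not overlap in these sums, which is the pattern that selected the genes. No mt-rRNA or mt-tRNA entry (0) was in the table, so these shares count protein-coding transcripts only. The most abundant other transcripts moved the opposite way on the same scale, since the major urinary protein genes (Mup) took 44.5% and 48.1% of the summed FPKM in WT and 42.4% and 37.2% in Brg1LKO. FPKM is relative to the library total, and the part of the Mup share in the mt- share was not tested. The nuclear chain genes, on the same scale, took 0.708% and 0.893% in WT and 0.786% and 0.844% in Brg1LKO.

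The summed FPKM of the 94 nuclear genes did not follow that pattern. It was 3133 and 4254 in WT and 3382 and 3573 in Brg1LKO, with means of 3693 ± 793 (SD, n = 2) and 3478 ± 135 (SD, n = 2), and both Brg1LKO values lay between the WT values. The ratio of summed mt- to summed nuclear FPKM was 5.91 and 4.68 in WT and 8.25 and 7.12 in Brg1LKO. Both Brg1LKO ratios were above both WT ratios, and the mt- sums in them are part of the pattern that selected the genes. A permutation of 2 livers against 2 cannot give a two-sided p below 0.333.

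**Figure D1:**
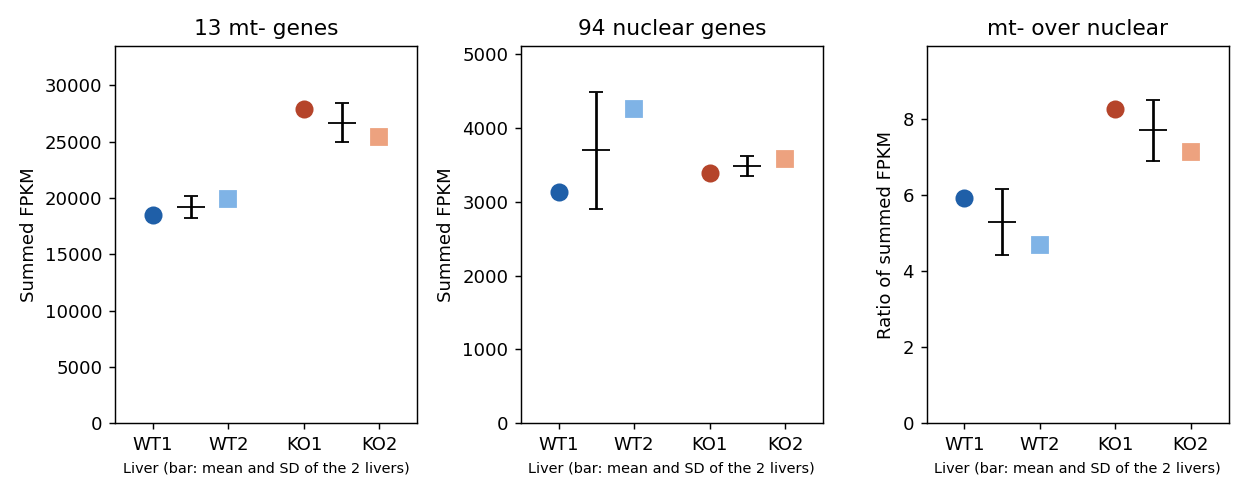
Summed FPKM of the 13 mt- genes (left), of the 94 nuclear genes (middle) and their ratio (right) in each liver, with the mean and SD of the 2 livers of a genotype as a bar. The mt- sums separate the genotypes (18500 and 19920 against 27920 and 25450), while the nuclear sums of KO lie between those of WT.

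The same ratio was computed for each complex that holds products of both genomes. In complex I it was 7.25 and 5.95 in WT and 11.0 and 8.47 in Brg1LKO. In complex IV it was 8.71 and 7.03 in WT and 11.8 and 10.8 in Brg1LKO. The ratio for complex V was 4.27 and 3.34 in WT and 6.16 and 5.44 in Brg1LKO. In these complexes the genotypes did not overlap. Each ratio holds the mt- level on which the genes were selected, so nothing is read from this, also for complex III. In complex III, where mt-Cytb is the only mt- member, both Brg1LKO livers, at 3.65 and 3.78, were also above both WT livers. WT replicate 1 at 3.35 was close to them, while WT replicate 2 was at 2.05.

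All 13 mt- genes had a higher mean in Brg1LKO. In 11 of 13 both Brg1LKO livers exceeded both WT livers, beside 10.7% of all 12346 genes tested, and since the mt- genes were selected on this contrast nothing is read from that count. The median log2 difference (Brg1LKO minus WT, on log2 of FPKM + 0.1) was 0.43 over the mt- genes and −0.02 over all genes tested, with a range over the mt- genes from 0.13 for mt-Nd3 to 0.92 for mt-Nd4l. The study's call rule asks for more than a 2-fold change together with p under 0.05 before adjustment, and by it limma called 0 of 13 mt- genes and 0.98% of all genes tested. Before adjustment 3 of 13 had p under 0.05, beside 247 of 12346 over all genes, and after it 0 of 13, beside 0 of 12346. The p-values and the SE below use a spread between these livers alone, which limma moderated by a trend over all genes tested.

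**Figure D2:**
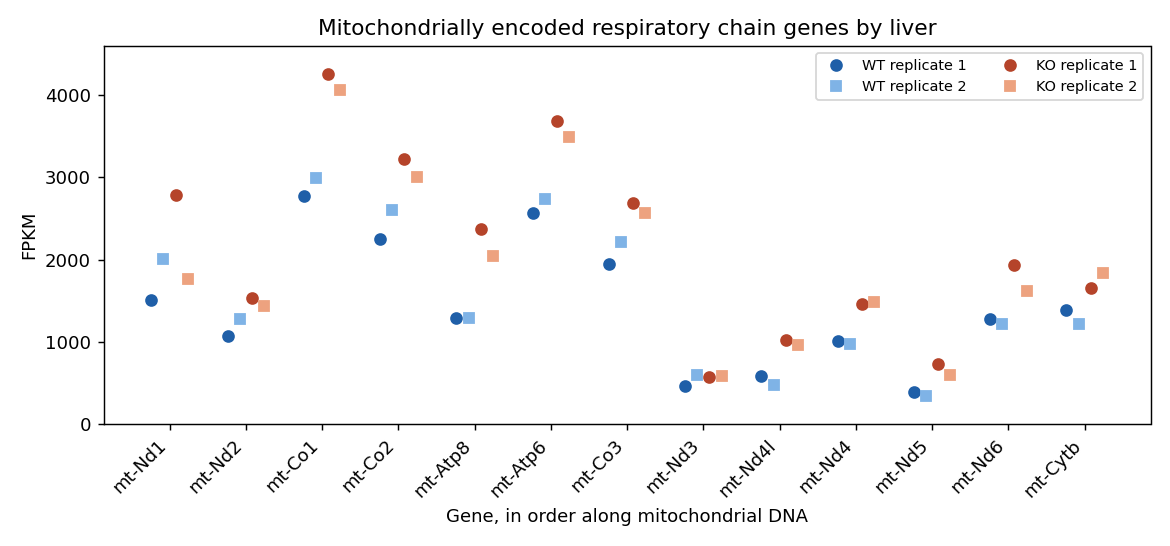
FPKM of each mt- gene in each liver, with genes in their order along mitochondrial DNA and 1 point per liver. KO points lie above both WT points for 11 of 13 genes, and the livers overlap for mt-Nd1 and mt-Nd3.

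Complex I holds 7 of the 13 mt- genes, all subunits of its membrane arm. mt-Nd4l was at 578 and 472 FPKM in WT and at 1018 and 964 FPKM in Brg1LKO, a ratio of means of 1.89. mt-Nd5 was at 393 and 337 FPKM in WT and at 734 and 599 FPKM in Brg1LKO, a ratio of 1.82. These were the mt- genes with the largest ratios of means. mt-Nd4 was at 1009 and 972 FPKM in WT and 1458 and 1488 FPKM in Brg1LKO. mt-Nd6 was at 1272 and 1214 FPKM in WT and 1939 and 1613 FPKM in Brg1LKO. For both, the gap between genotypes was wider than the gap between livers of a genotype. mt-Nd2 was at 1070 and 1280 FPKM in WT and 1535 and 1438 FPKM in Brg1LKO. In mt-Nd1 the livers overlapped, at 1506 and 2003 FPKM in WT and 2783 and 1760 FPKM in Brg1LKO. mt-Nd1 therefore had the widest spread within Brg1LKO of all mt- genes, with an SD of 723 FPKM. In mt-Nd3 the Brg1LKO livers at 568 and 586 FPKM lay within the WT range of 461 to 599 FPKM.

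mt-Cytb, the mitochondrial subunit of complex III, was at 1381 and 1219 FPKM in WT and 1653 and 1835 FPKM in Brg1LKO. The 3 mt- genes of complex IV encode its core subunits, which hold the haem and copper centres. mt-Co1, the most abundant mt- transcript per length, was at 2778 and 2989 FPKM in WT and 4261 and 4063 FPKM in Brg1LKO. mt-Co2 was at 2244 and 2600 FPKM in WT and 3226 and 3008 FPKM in Brg1LKO. mt-Co3 was at 1947 and 2214 FPKM in WT and 2694 and 2564 FPKM in Brg1LKO. The genotypes did not overlap in these 4 genes, and the ratios of means ran from 1.26 for mt-Co3 to 1.44 for mt-Co1. Complex V takes a pair of mt- subunits of its membrane sector. mt-Atp6 was at 2568 and 2734 FPKM in WT and 3681 and 3487 FPKM in Brg1LKO, a ratio of 1.35. mt-Atp8 was at 1292 and 1289 FPKM in WT and 2368 and 2045 FPKM in Brg1LKO, a ratio of 1.71. The WT livers were closest to each other in mt-Atp8 among the mt- genes.

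The mt- genes did not all differ by the same factor, also between genes printed above as sharing bases. mt-Nd4l over mt-Nd4 was 0.573 and 0.486 in WT and 0.698 and 0.648 in Brg1LKO. mt-Atp8 over mt-Atp6 was 0.503 and 0.472 in WT and 0.643 and 0.587 in Brg1LKO. In each pair the shorter upstream gene took more of the sum in both Brg1LKO livers. mt-Nd6 over mt-Nd5, genes on opposite strands, was 3.23 and 3.61 in WT and 2.64 and 2.69 in Brg1LKO. The 3 mt- genes with an unadjusted p under 0.05 had listed lengths of 204 bases (mt-Atp8), 297 bases (mt-Nd4l) and 1824 bases (mt-Nd5). Over the 12 mt- genes of the plus strand, the log2 difference had a Spearman rho of 0.36 with the order along the chromosome, 0.08 with length, 0.16 with GC content and −0.30 with the WT level. The 12 genes share libraries and come from 1 chromosome, so these values are descriptive.

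The nuclear genome holds copies of mitochondrial DNA, and the table was checked for them by counting runs of 75 bases that a member shares with another annotated gene. At least 50% of the runs were shared in 6 of 13 mt- genes, and the shares were 99.5% for mt-Co2 and mt-Atp6, 99.9% for mt-Co3, 97.8% for mt-Nd3, 98.7% for mt-Nd4l and 61.5% for mt-Nd4. The matching genes of these 6, among them Gm28661 and Gm10925, are not listed in the table. mt-Nd1, mt-Atp8, mt-Nd6 and mt-Cytb shared no such run with another gene, and their median log2 difference was 0.47. It was 0.40 for the 6 genes with at least 50% of runs shared. mt-Co1, mt-Nd2 and mt-Nd5, which shared 39.8%, 5.7% and 1.7% of their runs, had a median of 0.53. Gm4076, 1 of the 2 genes that hold the 1.7% of shared runs of mt-Nd5, was listed at 92.5 and 78.0 FPKM in WT. It was at 180 and 148 FPKM in Brg1LKO, and so had the order of livers of mt-Nd5 between genotypes. How the authors treated reads with several matches is not given in the sources used here.

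Among the 94 nuclear genes, 89 passed the filter of a mean of 0.1 FPKM. The other 5 were paralogs of complex IV, of which Cox6a2, Cox7b2 and Cox8c were at 0 in every liver, Cox8b was at 0.0707 FPKM in Brg1LKO replicate 1 alone, and Cox4i2 was at 0.0337 FPKM or below. Of the 89 genes, 26 had a positive and 63 a negative log2 difference, and the median was −0.07, beside −0.02 over all genes tested. limma called 0 of 89 at the threshold that 0.98% of all genes passed, and 0 of 89 had an unadjusted p under 0.05. The lowest unadjusted p was 0.102, for Ndufa4l2. Both Brg1LKO livers lay above both WT livers in 2 of 89 genes, beside 10.7% of all genes, and below them in 4 of 89, beside 10.0% of all genes. The nuclear median was −0.30 when WT replicate 1 was left out and 0.14 when WT replicate 2 was, so its sign rests on which WT liver is used.

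**Figure D3:**
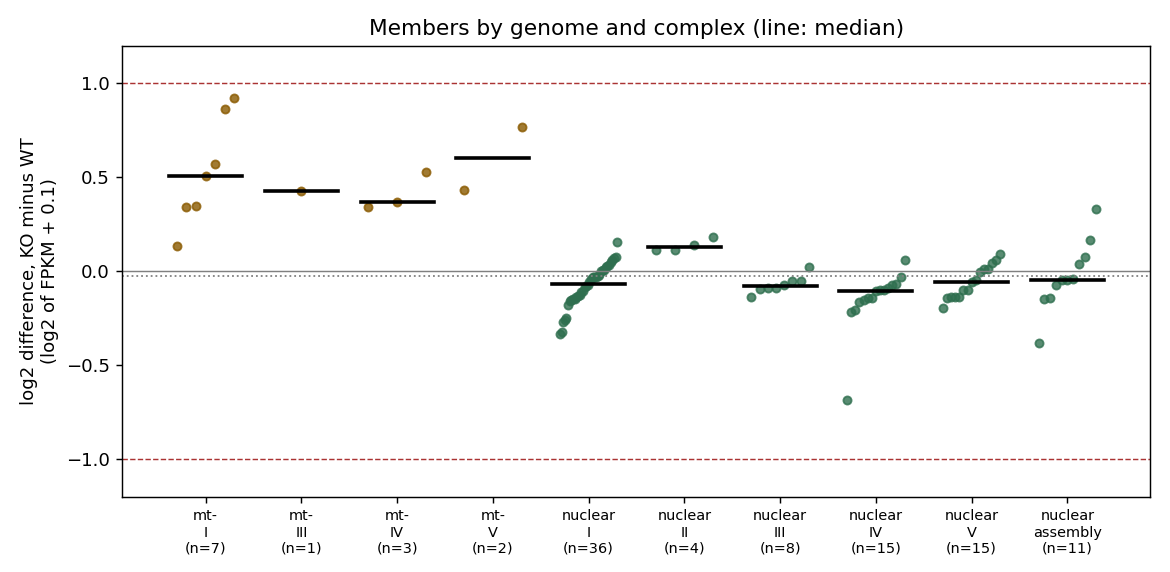
log2 difference (KO minus WT, log2 of FPKM + 0.1) of each tested member by genome and complex, with 1 point per gene, the group median as a black line, the median of all genes as a dotted line and a 2-fold change as dashed lines. No point passes the dashed lines; mt- medians run from 0.37 to 0.60 and nuclear medians from −0.10 to 0.13.

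Complex I had 36 nuclear subunits, with a median log2 difference of −0.07. The difference was positive in 11 and negative in 25. The 7 nuclear core subunits, which carry the flavin and the iron-sulphur clusters, had a median of −0.03, and the 29 supernumerary subunits a median of −0.07. Ndufv1, the NADH-binding subunit and the most abundant nuclear member of complex I per length, was at 92.6 and 119 FPKM in WT and 97.4 and 101 FPKM in Brg1LKO. Ndufb10, a supernumerary subunit of the membrane arm, was at 60.8 and 96.3 FPKM in WT and 69.6 and 82.1 FPKM in Brg1LKO. In both genes the Brg1LKO livers lay between the WT livers. Ndufs1, the core subunit with the most iron-sulphur clusters, had the highest log2 difference of the nuclear complex I genes at 0.16 ± 0.32 (SE). It was at 23.8 and 26.1 FPKM in WT and 29.0 and 26.7 FPKM in Brg1LKO. The gene lies on chromosome 1 (chr1:63143596-63176833, minus strand, GRCm38). The groups did not overlap, though WT replicate 2 and Brg1LKO replicate 2 were close. Ndufa1, an X-linked supernumerary subunit (chrX:37187588-37191163, minus strand), had the lowest of them at −0.33 ± 0.33 (SE). It was at 35.8 and 45.7 FPKM in WT and 31.7 and 32.4 FPKM in Brg1LKO. Ndufa3 was the other nuclear complex I gene with both Brg1LKO livers below WT, at 15.3 and 18.9 FPKM against 13.4 and 15.2 FPKM, where the nearest livers nearly met.

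Complex II, succinate dehydrogenase, also a Krebs cycle enzyme, was the only complex in which every nuclear subunit had a higher mean in Brg1LKO. Sdha, the flavoprotein that oxidises succinate, was at 44.4 and 53.9 FPKM in WT and 56.7 and 54.4 FPKM in Brg1LKO. Sdhb, the iron-sulphur subunit, was at 12.8 and 17.4 FPKM in WT and 17.5 and 15.5 FPKM in Brg1LKO. Only Sdha, 1 of 4 genes, did not overlap between genotypes, and only narrowly, beside 10.7% of all genes with both Brg1LKO livers above WT. The membrane anchors were Sdhc, at 20.4 and 27.2 FPKM in WT and 24.3 and 26.8 FPKM in Brg1LKO, and Sdhd, at 34.3 and 48.2 FPKM in WT and 45.8 and 42.2 FPKM in Brg1LKO. The log2 differences ran from 0.11 to 0.18 with SE of 0.32 to 0.34, and 0 of 4 passed the threshold or reached an unadjusted p under 0.05 with limma. As a share of the summed nuclear FPKM of the chain, complex II made up 3.57% and 3.45% in WT and 4.27% and 3.89% in Brg1LKO, without overlap. Without WT replicate 1, the median log2 difference of complex II was −0.09, so the higher mean rests on that liver.

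Complex III had 8 nuclear subunits with a median of −0.08, of which 7 had a lower mean. Uqcr11 and Uqcr10, small subunits of the complex, were the most abundant per length. Uqcr11 was at 98.0 and 145 FPKM in WT and 106 and 119 FPKM in Brg1LKO, and Uqcr10 at 86.7 and 134 FPKM in WT and 98.1 and 105 FPKM in Brg1LKO. Uqcrc2, a core protein without a redox centre, was the only one with a higher mean, at 19.9 and 23.2 FPKM in WT and 22.4 and 21.3 FPKM in Brg1LKO. Uqcrh, the hinge protein, had the lowest log2 difference at −0.14, with 33.5 and 46.5 FPKM in WT and 33.5 and 38.5 FPKM in Brg1LKO. In every one of the 8 genes the genotypes overlapped.

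Of the 20 nuclear complex IV genes 15 were tested, with a median of −0.10, and 14 of 15 had a lower mean in Brg1LKO. Cox6a1 was the most abundant nuclear member of the whole chain per length, at 179 and 251 FPKM in WT and 198 and 197 FPKM in Brg1LKO. Leaving out WT replicate 1 gave complex IV a median of −0.36, and leaving out WT replicate 2 gave 0.09. Cox6c, a subunit with a log2 difference of −0.21 ± 0.33 (SE), was at 24.1 and 31.4 FPKM in WT and 23.2 and 24.2 FPKM in Brg1LKO, with WT replicate 1 just below Brg1LKO replicate 2. Cox7a2l, a factor that joins complexes III and IV into supercomplexes, was the only gene of the group with a higher mean, at 31.6 and 51.1 FPKM in WT and 46.6 and 37.6 FPKM in Brg1LKO.

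Several complex IV subunits have paralogs used in other tissues, and the liver forms prevailed in every library. Cox4i1 was at 71.7 to 109 FPKM, while Cox4i2, the lung and hypoxia form, had at most 2 estimated reads. Cox6a1 was at 179 to 251 FPKM and Cox6a2, the heart and muscle form, was listed at 0. Cox8a was at 94.0 to 134 FPKM, while Cox8b had 2 estimated reads in 1 liver and Cox8c, a testis form, was listed at 0. Cox7a1, the heart and muscle form, was low at 0.568 to 0.825 FPKM beside 32.2 to 44.2 FPKM for Cox7a2. Cox6b2, the testis form, was at 0.676 and 1.82 FPKM in WT and 0.896 and 1.11 FPKM in Brg1LKO, beside 78.1 to 108 FPKM for Cox6b1. Cox7b was at 22.5 to 27.6 FPKM and Cox7b2 was listed at 0. The order within each of these pairs was the same in every liver.

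Ndufa4, first named for complex I and now placed in complex IV, was at 113 and 154 FPKM in WT and 117 and 123 FPKM in Brg1LKO. Its hypoxia-induced relative Ndufa4l2 (chr10:127514967-127517154, plus strand) was at 0.219 and 0.404 FPKM in WT and 0.107 and 0.201 FPKM in Brg1LKO. The log2 difference of Ndufa4l2, −0.69 ± 0.39 (SE), was the lowest of the 89 nuclear genes tested, but with a pseudocount of 1 it was −0.18, above the −0.33 of Ndufaf6. It rests on 17 and 30 estimated reads in WT and 8 and 14 in Brg1LKO, and the gene overlaps Shmt2 on the other strand.

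**Figure D4:**
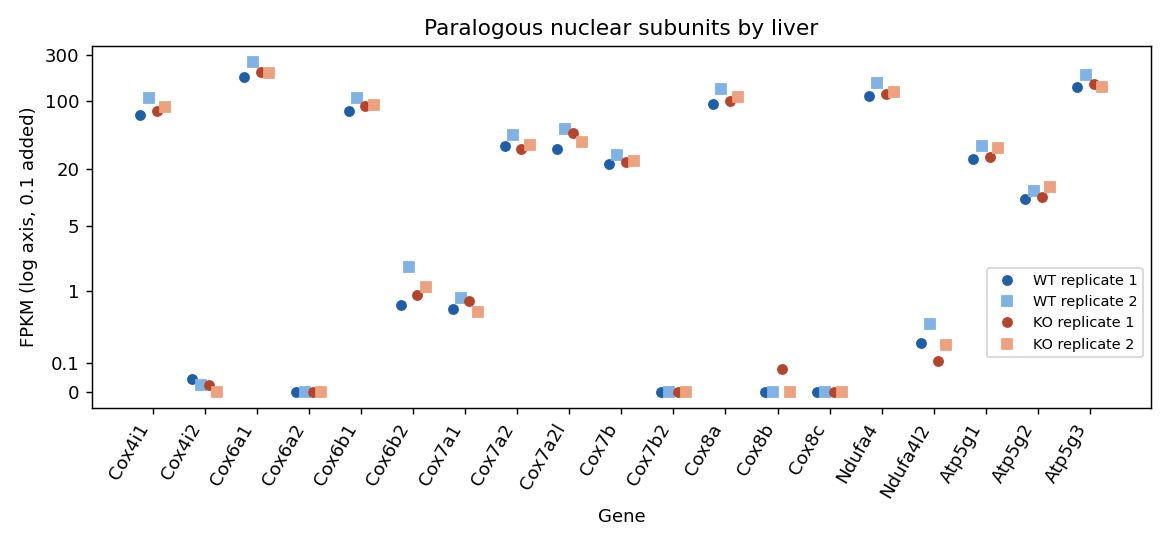
FPKM of paralogous nuclear subunits in each liver on a log axis with 0.1 added, 1 point per liver. Cox4i1, Cox6a1 and Cox8a lie near or above 71.7 FPKM in all livers, while Cox6a2, Cox7b2 and Cox8c are at 0.

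Complex V had 15 nuclear genes, with a median log2 difference of −0.06, positive in 5 and negative in 10. The 3 genes for the same c subunit of the proton-driven ring differed in level. Atp5g3 was at 139 and 185 FPKM in WT and 151 and 141 FPKM in Brg1LKO, Atp5g1 at 25.2 and 34.1 FPKM in WT and 26.2 and 32.5 FPKM in Brg1LKO, and Atp5g2 at 9.75 and 11.7 FPKM in WT and 10.2 and 12.7 FPKM in Brg1LKO. Their order was the same in every liver, and Atp5g2 had the highest log2 difference of the nuclear complex V genes at 0.09 ± 0.34 (SE). Atp5h, a stalk subunit, was at 117 and 160 FPKM in WT and 120 and 137 FPKM in Brg1LKO. Atp5k, the subunit e of the membrane sector, had the lowest log2 difference of these nuclear genes at −0.20 ± 0.33 (SE), at 27.4 and 36.5 FPKM in WT and 26.4 and 28.9 FPKM in Brg1LKO. The catalytic subunit Atp5b was at 107 and 141 FPKM in WT and 129 and 119 FPKM in Brg1LKO, within the WT range.

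The 11 assembly genes had summed FPKM of 36.4 and 44.2 in WT and 31.1 and 45.8 in Brg1LKO. Ndufaf6 (chr4:11051045-11076205, minus strand), an assembly factor of complex I, was at 6.06 and 7.45 FPKM in WT and 4.85 and 5.42 FPKM in Brg1LKO, a log2 difference of −0.38 ± 0.34 (SE). It was the only 1 of 11 assembly genes without overlap, beside 10.0% of all genes with both Brg1LKO livers below both WT livers. Uqcc2, an assembly factor of complex III, had the highest value among those with a mean of at least 1 FPKM, at 0.04, from 8.11 and 11.8 FPKM in WT and 8.10 and 12.5 FPKM in Brg1LKO. Within each genotype replicate 2 of Uqcc2 was higher, and the genotypes were nearly superimposed.

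The livers of a genotype also differed from each other, and most nuclear genes had the same order of replicates as most other genes. Within WT, replicate 2 was higher than replicate 1 in 86 of 89 nuclear genes, with a median log2 difference of 0.42, beside 9912 of 12346 and 0.27 over all genes. Within Brg1LKO, replicate 2 was higher in 69 of 89, with a median of 0.14, beside 9038 of 12346 and 0.30 over all genes. The mt- genes did not share this order, with replicate 2 higher in 7 of 13 in WT (median 0.09) and in 3 of 13 in Brg1LKO (median −0.08). Cytosolic ribosomal protein genes were also higher in replicate 2, by a median of 0.44 in WT and 0.35 in Brg1LKO over 76 genes. Within Brg1LKO the nuclear complexes had smaller medians than these ribosomal genes, at 0.185 in I, 0.06 in III, 0.07 in IV and 0.13 in V. The assembly genes had a larger one, at 0.615. In complex II, replicate 2 of Brg1LKO was higher in 1 of 4 genes, with a median of −0.09.

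**Figure D5:**
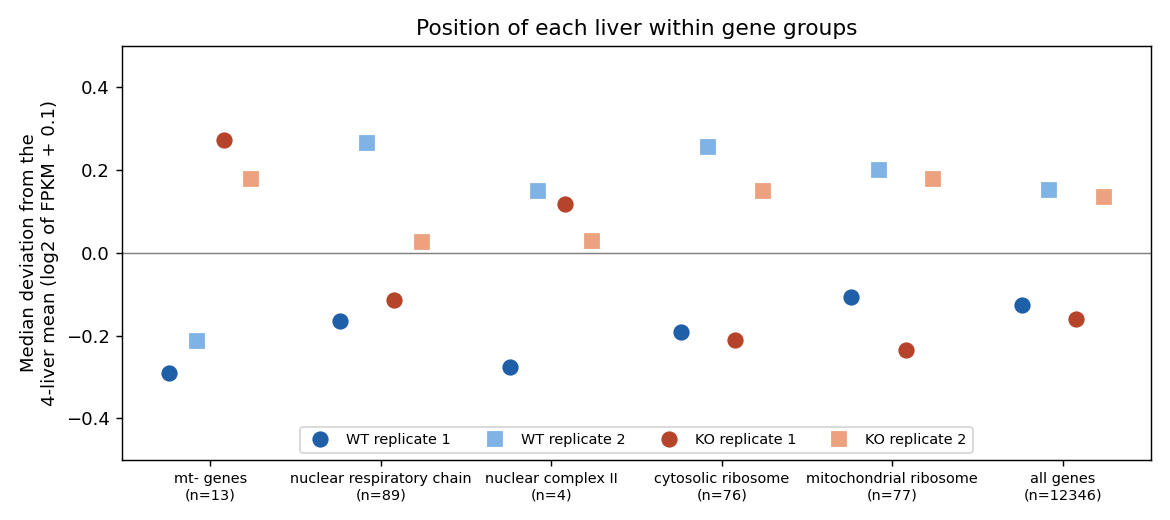
Median deviation of each liver from the 4-liver mean (log2 of FPKM + 0.1) for 6 groups of genes, with 1 point per liver. The mt- genes order the livers by genotype, from −0.29 and −0.21 in WT to 0.27 and 0.18 in KO, whereas the nuclear chain, both ribosomes and all genes place replicate 2 above replicate 1.

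How the level of a nuclear gene compares with that of another depends on the transcript under which it is listed. The listed transcript was the longest of its gene in 75 of 94 nuclear genes, and in 22 it was annotated as a retained intron or processed transcript. In 3 genes it was more than 2 times as long as the longest coding transcript. Per kilobase of the longest coding transcript, the mean of Ndufb7 went from 2.22 to 15.8 FPKM, that of Cox6c from 25.7 to 106 FPKM and that of Atp5e from 24.8 to 99.8 FPKM. Differences between livers within a gene are not affected by this length. Nuclear genes with a listed length under 1000 bases had a median log2 difference of −0.13 over 45 genes, and the longer ones −0.03 over 44, while all transcripts under 1000 bases had −0.08 over 913 genes. Runs of 75 bases shared with another annotated gene were found in 34 of 94 nuclear genes, but made up at least 50% only in Atp5l, at 76.0%. An overlapping gene on the other strand was annotated for 32 of 94.

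Nuclear respiratory genes are known to be driven by factors such as NRF1, the ETS factor GABP and YY1, so the RefSeq promoter windows (GRCm38.p6, 250 bases before to 50 after the start) were searched for their core motifs on both strands. Windows were found for 78 of 94 nuclear genes, 84 in all. CGCATGCG (NRF1) was in 13.1% of these windows and in 1.87% of all 32851 windows, or 3.73% of the windows of genes tested. AAGATGGC (YY1) was in 15.5%, beside 2.75% of all windows and 4.37% of those of genes tested. CCGGAAGT (ETS/GABP) was in 5.95%, beside 3.89% and 7.81%. The YY1 motif lay after the start in 10 of 13 matches, at positions 12 to 39. Complex I held 7 of its 13 windows, beside 34 of all 84 windows searched. Uqcr11 and Atp5j are printed because their windows held 2 different motifs, in capitals, and the genes are among the more abundant of complexes III and V. Uqcr11 has CCGGAAGT at −66 and CGCATGCG at −5, and Atp5j has CGCATGCG at −147 and AAGATGGC at −88, counted to the first base of the match from the start.
Uqcr11 promoter, chr10:80406772-80407071, minus strand: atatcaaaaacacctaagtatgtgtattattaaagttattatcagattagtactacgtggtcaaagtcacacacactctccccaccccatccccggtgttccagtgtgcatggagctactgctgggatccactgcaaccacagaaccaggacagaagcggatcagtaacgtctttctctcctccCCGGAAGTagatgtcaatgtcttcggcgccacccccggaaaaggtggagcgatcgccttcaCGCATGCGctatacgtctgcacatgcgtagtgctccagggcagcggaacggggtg
Atp5j promoter, chr16:84834927-84835226, minus strand: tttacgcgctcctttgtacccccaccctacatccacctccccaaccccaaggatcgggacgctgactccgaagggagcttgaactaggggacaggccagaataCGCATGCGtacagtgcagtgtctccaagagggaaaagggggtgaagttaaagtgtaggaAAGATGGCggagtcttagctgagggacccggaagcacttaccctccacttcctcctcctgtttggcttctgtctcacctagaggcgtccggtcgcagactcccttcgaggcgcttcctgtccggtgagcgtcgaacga
The match is to letters only, and no binding was measured. Atp5j was at 81.9 and 108 FPKM in WT and 83.9 and 86.5 FPKM in Brg1LKO, and Gabpa, which encodes the DNA-binding subunit of GABP and overlaps Atp5j on the other strand, was at 4.33 and 5.45 FPKM in WT and 4.51 and 5.43 FPKM in Brg1LKO.

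The genes that serve the chain from outside the rule were read from lists of the same kind. Of 16 genes of mitochondrial DNA transcription and replication, 0 passed the threshold. The log2 difference was positive in 5 and negative in 11, with a median of −0.12. Tfam, which packages mitochondrial DNA and starts its transcription, was at 5.11 and 5.51 FPKM in WT and 5.01 and 5.93 FPKM in Brg1LKO. Polrmt, the mitochondrial RNA polymerase, was at 6.97 and 8.61 FPKM in WT and 6.14 and 8.20 FPKM in Brg1LKO. Both overlapped between genotypes. Of 16 genes of mitochondrial RNA processing and stability, 0 passed the threshold, and the median was −0.08. Lrpprc, which stabilises mitochondrial mRNA, was at 11.7 and 13.0 FPKM in WT and 13.4 and 12.4 FPKM in Brg1LKO. Tbrg4, a FASTK family protein of mitochondrial RNA, was at 18.7 and 20.5 FPKM in WT and 21.5 and 23.2 FPKM in Brg1LKO, and was above WT in both Brg1LKO livers. The same held for Fastk and Mtpap, so for 3 of 16 genes, beside 10.7% of all genes, and Fastkd1 was below WT in both Brg1LKO livers, 1 of 16 beside 10.0%.

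Of 10 nuclear regulators of respiratory genes, Nrf1 fell below the filter on low values. It was at 0.0611 and 0.0743 FPKM in WT and 0.0918 and 0.0750 FPKM in Brg1LKO. The others gave 0 of 9 past the threshold, with a median of 0.03. Ppargc1a, the coactivator PGC-1α, was at 0.472 and 0.773 FPKM in WT and 1.15 and 0.264 FPKM in Brg1LKO, so its Brg1LKO livers lay on either side of WT. Ppara, the receptor that drives fatty acid oxidation genes, was at 1.58 and 1.80 FPKM in WT and 2.39 and 3.34 FPKM in Brg1LKO, with a log2 difference of 0.71 ± 0.34 (SE) and adjusted p = 1 from limma. Of 20 genes used as proxies of mitochondrial mass, 0 passed the threshold, and the median was 0.00 with 10 higher and 10 lower. Citrate synthase (Cs) was at 6.65 and 10.1 FPKM in WT and 9.79 and 6.41 FPKM in Brg1LKO, and the outer membrane channel Vdac1 at 13.1 and 18.0 FPKM in WT and 17.3 and 17.1 FPKM in Brg1LKO. Neither separated the genotypes.

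Electron carriers and subunits outside the rule gave 0 of 7 past the threshold, with a median of −0.13, and cytochrome c (Cycs) was at 16.0 and 17.0 FPKM in WT and 15.7 and 16.2 FPKM in Brg1LKO. The 41 assembly factors outside the rule gave 0 past the threshold and a median of −0.08, and the 77 mitochondrial ribosome genes also 0 and a median of −0.08. The 6 genes of ethanol and aldehyde oxidation gave 0 past the threshold and a median of 0.03. In the 7 lists above and the mitochondrial ribosome, 0 genes had an unadjusted p under 0.05 with limma.

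The size of the nuclear difference depended on the scale of the libraries. With each library set to an equal FPKM sum without the mt- entries, the median of all genes moved from −0.02 to 0.10, the nuclear median from −0.07 to 0.06 and the mt- median from 0.43 to 0.57. Relative to the median of all genes, the nuclear genes were at −0.05 before and −0.04 after, and the mt- genes at 0.46 and 0.47. The nuclear complexes other than II likewise went from medians below 0 to medians above 0 on that scale, so no direction is given to them.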

How the data were processed

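Whole liver RNA of 2 WT and 2 Brg1LKO mice was measured by RNA-seq, and groups were taken from the sample labels. The authors deposited FPKM values, 1 per gene and liver. The submitters' processing notes name HISAT2 2.0.4 and StringTie 2.1.4, while the paper's methods name Trimmomatic, HISAT2, GRCm38 and Cufflinks and describe TruSeq stranded libraries. The labels name a BGIseq protocol. Read counts were not used here. Estimated reads came from the steps of low FPKM values, of which 88.3% to 89.6% lay within 0.1 of a whole read, and cover counting error only.

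log2(FPKM + 0.1) was fitted across 12346 genes (mean FPKM of 0.1 or more) with limma 3.58.1 (R 4.3.3, eBayes with trend), with Benjamini-Hochberg adjustment. The pseudocount understates the change of low genes. Genes were called at more than 2-fold with an unadjusted p under 0.05. The fit was tested on simulated data. Other values were computed with Python 3.11.15. Annotation was GENCODE M21 and RefSeq.

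The members and lists were chosen with earlier results of these data known. Named genes were every mt- gene, the 2 most abundant nuclear genes of each complex, the nuclear gene with the largest rise and fall per group among those with a mean of at least 1 FPKM, tissue paralogs and Smarca4. Ndufa3, Ndufa4l2, the other Sdh genes, Atp5b, Atp5j, Ndufb7 and Atp5e, Atp5l and the genes of the lists were named after their values were seen. Alternative settings comprised pseudocounts of 1 and 0.01, other filters and scalings, eBayes without trend, a replicate block and each liver left out.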

Additional observations from a re-analysis of the deposited data

How the results depend on the processing

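Counts of nuclear chain genes past the threshold were 0 under all alternatives run. For mt- genes the count was 2 with an equal FPKM sum without mt- entries, beside 112 of 12346 genes on that scale. It was 0 under the other settings that kept every liver. The mt- genes were selected on this contrast, so nothing is read from these counts. Over all genes it was 121 as reported, 18 with a pseudocount of 1, 80 without a filter, 68 when a mean of 1 FPKM was required, and 78 to 552 with a liver left out. The samples share replicate numbers, but deviations of same-numbered livers had a correlation of 0.031, so the numbers were not taken as pairs. With a replicate block, 108 of all genes, 0 nuclear and 0 mt- genes passed.

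The median mt- log2 difference was 0.34 with quantile normalization, 0.57 with the equal sum, and 0.40 to 0.56 with a liver left out. With a liver left out, the nuclear medians ran from −0.31 to 0.12 in complex I, −0.35 to 0.17 in III, −0.36 to 0.092 in IV and −0.30 to 0.19 in V. The difference in the mt- share of summed FPKM was 2.06 percentage points, 1.75 without mt-Co1 and 3.11 without the 20 most abundant other entries. As a share of the estimated reads of listed genes, which held 64.3% to 68.8% of each library, it was 1.08 points. As a share of all estimated reads of the library it was 0.667 points. Of 169 values of single mt- genes over the alternatives, 2 were negative, both for mt-Nd3 (−0.07 with quantile normalization and −0.05 without WT replicate 1). Of 29 named nuclear genes, 22 changed sign under at least 1 alternative. The cause of these shifts was not tested. Depth limits the precision of scarce members such as Ndufa4l2, with 8 to 30 estimated reads a liver.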
